A study of Mus musculus with 12 samples.

Results

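Pura, Purb and Purg encode Pur-alpha, Pur-beta and Pur-gamma, the purine-rich element binding proteins of the mouse, and are 3 of the 17576 genes listed in an expression table of cultured C18-4 cells. Purb was chosen by its fall in the knockdown libraries, which is therefore given here as a description and carries no test. Pura and Purg were chosen by family name, and the question was whether they shifted where Purb was low. All 3 were among the 11435 genes with at least 1 RPKM (reads scaled to the length of the gene and the reads of the library) in at least 3 libraries.

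The methods describe the C18-4 line as mouse spermatogonial stem cells, although most spermatogonial markers were below 1 RPKM, as given below. In all, 12 RNA-seq libraries of stably transfected C18-4 cells were compared, 3 in each of 4 groups. The cells labelled C18_5251KD (KD) carried a mix of 3 shRNAs directed at lncRNA5251 on the lentivirus backbone LV3, and those labelled C18_3NC (3NC) carried a control shRNA on LV3. The cells labelled C18_5251OV (OV) carried lncRNA5251 on the backbone LV5, and those labelled C18_5NC (5NC) carried LV5 with no insert. All 4 groups were thus transfected cells, and no untransfected cells were among them. Neither the labels nor the methods say that the 3 libraries of a group came from separate cultures, so the p-values measure the spread between these libraries, which may be technical. LncRNA5251 has no entry of its own in the table, and its level was not analysed here. The shRNA sites lie in the Purb transcript, and the gene model behind the Purb values is not given in the sources used here. Whether reads of lncRNA5251 count towards the Purb values is therefore not known, in the KD and OV cells as in the controls.

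Pur proteins bind single-stranded DNA and RNA that is rich in purines. Pur-alpha and Pur-beta act at promoters, where they are known as repressors of smooth muscle actin and cardiac myosin genes, and Pur-alpha also travels with mRNA in transport granules of neurons. Pur-gamma shares the same repeats but is much less studied.

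The shRNA sequences are shown because each occurs in full in 1 member of the family. Capitals mark the bases that would pair with positions 2 to 8 of the guide strand, if the guide starts opposite the last base printed.
control shRNA: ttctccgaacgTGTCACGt
shRNA 1: gctgggacttaatGTCCTTCt
shRNA 2: gcatgggcaattcAAACAAAt
shRNA 3: gcttattatgcatCGTAAACc
Among 141767 transcripts of the GENCODE annotation on build GRCm38, the only gene holding shRNA 1, 2 or 3 without a mismatch was Purb, and the control shRNA had no such match. The sites were chr11:6468416-6468436 for shRNA 1, chr11:6467969-6467989 for shRNA 2 and chr11:6468248-6468268 for shRNA 3, all on the minus strand and in the 3′ UTR of Purb. They began 6476, 6923 and 6644 bases after the stop codon.

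Neither Pura nor Purg held an shRNA sequence, and their best matches were within 2 bases of those of the median gene. The best ungapped match of the 21 bases had 13, 14 and 13 identical bases in Pura for shRNA 1, 2 and 3, and 13, 13 and 14 in Purg. The median over 21877 genes was 13, 13 and 12. Of all genes, 68.7%, 64.7% and 11.8% were at least as close as Purg, and 68.7%, 22.7% and 46.6% at least as close as Pura. The capital letters of shRNA 2 occurred 2 times in the Pura mRNA and 6 times in the Purb mRNA. Of all genes, 37.5% held that word at least once. The words of shRNA 1 and 3 were absent from Pura, and Purg held none of the 3. A match of letters is a description and was not tested as a site of action.

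The libraries resembled each other closely. Their RPKM summed to between 533099 and 580920, the depth relative to each other was between 0.979 and 1.056 as judged from 33 low genes, and Spearman's correlation across genes was between 0.9875 and 0.9900 within groups. The number of reads is unknown. Of 15 spermatogonial markers in the table, 12 were below 1 RPKM in all 12 libraries, and Ret, Nanos2 and Kit were listed at 0 throughout. Ddx4, a germ cell marker, reached 0.07 RPKM at most, and Dazl 0.04. The identity of the line was not tested. The RPKM of the 15 markers summed to 83.0 to 91.7 in 3NC and 94.1 to 98.0 in 5NC, to 63.7 to 72.3 in KD and to 110 to 128 in OV, most of it from Uchl1. The 3 markers tested were called lower in KD compared to either control. Their median log2 fold change was -0.40 against 3NC and -0.29 against 5NC. Of all tested genes 23.5% were called lower against 3NC and 31.4% against 5NC, with medians of 0.04 and 0.02. Among the 3 markers Etv5, a transcription factor gene, was at 7.81 ± 0.0854 RPKM in 3NC, 2.35 ± 0.157 in KD and 3.10 ± 0.411 in 5NC. Its part in the results of the Pur genes was not tested. Replicate 3 of OV stood apart from the other OV libraries with transcript length, as described beside the results of Purb.

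Purb (Entrez gene 19291) was the member with the highest RPKM in the control cells and the only one that was strongly lower in KD. It stood at 32.92, 34.11 and 33.84 RPKM in the 3 libraries of 3NC and at 8.93, 8.79 and 10.25 RPKM in those of KD. In 5NC it was at 29.18, 32.09 and 30.71 RPKM, and in OV at 23.94, 24.2 and 33.25 RPKM. The KD libraries were thus far below all the others, the 3NC and 5NC libraries were apart by a small gap, and the OV libraries were split around 5NC. With the SD of n = 3 libraries per group, as throughout, the mean RPKM of the controls was 33.6 ± 0.624 (3NC) and 30.7 ± 1.46 (5NC), that of KD was 9.32 ± 0.806 and that of OV was 27.1 ± 5.30. The KD mean was 27.7% of the 3NC mean and 30.4% of the 5NC mean. On the log2(RPKM + 1) scale, where changes of low genes come out too small, the difference was -1.75 (95% interval -1.95 to -1.54) against 3NC and -1.62 (-1.82 to -1.41) against 5NC, both given without a test. In bulk RNA, fewer cells that express a gene and less RNA in each cell cannot be told apart.

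Pura (Entrez gene 19290) had nearly the same level in the knockdown cells as in either control. Its values were 12.34, 12.17 and 11.54 RPKM in 3NC and 11.57, 10.66 and 12.76 RPKM in KD. They were 11.97, 12.31 and 13.0 RPKM in 5NC and 10.67, 10.57 and 10.79 RPKM in OV. The knockdown libraries lay on both sides of the 3NC libraries, while all the OV libraries were below those of 5NC. The control means were 12.02 ± 0.421 RPKM (3NC) and 12.4 ± 0.525 (5NC), and the mean was 11.7 ± 1.05 for KD and 10.7 ± 0.110 for OV. At the level of 3NC, 46.1% of the tested genes were lower than Pura, against 75.2% for Purb and 18.7% for Purg.

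Purg (Entrez gene 75029) was the weakest member in the control cells and the one that was higher where Purb was low. It stood at 3.4, 4.33 and 4.17 RPKM in 3NC and at 5.6, 5.44 and 4.89 RPKM in KD. In 5NC it was at 3.79, 3.77 and 2.93 RPKM and in OV at 2.54, 2.24 and 2.71 RPKM. Every KD library was above every library of the other groups, and every OV library was below every other library. The control means were 3.97 ± 0.497 RPKM (3NC) and 3.50 ± 0.491 (5NC), against 5.31 ± 0.372 for KD and 2.50 ± 0.238 for OV.

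**Figure D1:**
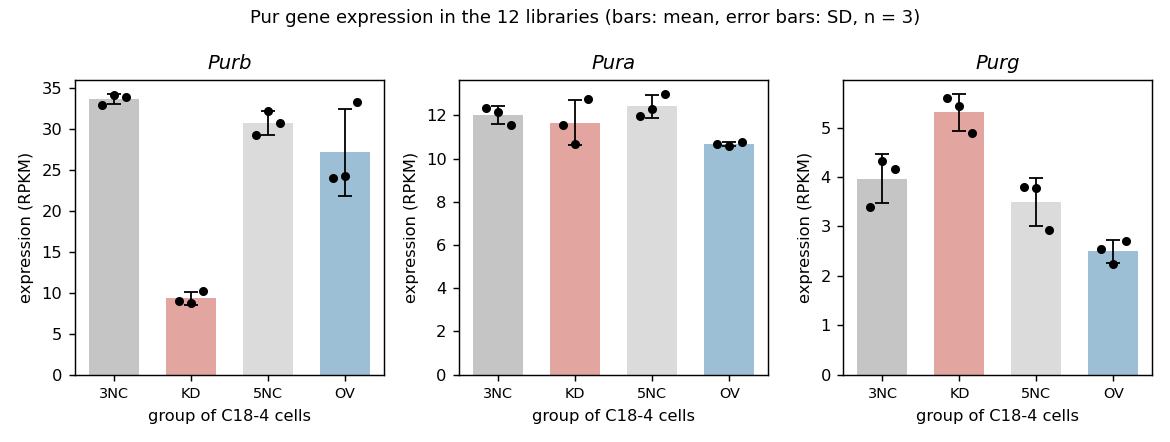
Expression of Purb, Pura and Purg in RPKM (y axis, each panel with its own scale from 0) in the 4 groups of C18-4 cells. Bars give the mean, error bars the SD of 3 libraries and points the libraries. Purb was at 8.79 to 10.25 RPKM in KD, Pura stayed between 10.57 and 13.0 RPKM in all libraries, and Purg was highest in KD and lowest in OV.

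The knockdown was compared with its own control first, to ask whether the relatives of Purb were shifted in cells with little Purb mRNA. Purg rose in KD compared to 3NC, with a log2 fold change of 0.35 (standard error 0.10, 95% interval 0.14 to 0.56, limma, adjusted p = 0.00661 by Benjamini-Hochberg over all tested genes). The knockdown mean was 134% of the control mean. The libraries did not overlap, and an exact permutation test of the RPKM gave a two-sided p of 0.1, the smallest that 3 libraries against 3 allow. Pura had a log2 fold change of -0.04 (95% interval -0.18 to 0.09, adjusted p = 0.590, limma), its libraries overlapped and its mean was 97.1% of that of 3NC. The interval of Pura excludes a rise of the size fitted for Purg. A call was common in this comparison: 55.4% of all tested genes passed an adjusted p of 0.05, 31.9% as higher and 23.5% as lower, and in 62.8% the libraries of the groups did not overlap. Only 1.57% passed the limits of the study, which ask for a log2 fold change of 1 or more in size beside an adjusted p of no more than 0.001, and neither Pura nor Purg was among them.

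The 2 vectors were then set against each other, since a difference between the control groups is part of any reading of these cells. Neither Pura nor Purg passed the test in 5NC compared to 3NC, where 56.5% of tested genes passed (31.0% higher and 25.6% lower). The log2 fold change was 0.04 for Pura (adjusted p = 0.570, limma) and -0.14 for Purg (95% interval -0.35 to 0.06, adjusted p = 0.218, limma). For Purb the log2 fold change was -0.13 (95% interval -0.34 to 0.08) and the libraries of the control groups did not overlap, as in 69.3% of tested genes. Since the 3NC values of Purb took part in its choice, this difference is a description with no test.

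The knockdown cells were also compared to 5NC, the control of the other vector. Purg was higher by 0.49 on the log2 scale (standard error 0.10, 95% interval 0.29 to 0.70, adjusted p = 0.000388, limma), at 152% of the 5NC mean. Pura had a log2 fold change of -0.09 (95% interval -0.22 to 0.05, adjusted p = 0.243, limma), at 93.9% of the 5NC mean. Without replicate 3 of KD, the highest of the 3, Pura passed as lower (log2 fold change -0.15, adjusted p = 0.0416, limma). In this comparison 65.4% of tested genes passed, 34.0% as higher and 31.4% as lower, and the libraries of 69.4% did not overlap. It uses the same KD libraries as the comparison with 3NC and is not a second experiment.

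The OV cells were compared with 5NC, the same vector with no insert. Purg fell by 0.36 on the log2 scale (standard error 0.10, 95% interval -0.57 to -0.15, adjusted p = 0.0190, limma), to 71.4% of the 5NC mean. Pura fell by 0.20 (standard error 0.06, 95% interval -0.34 to -0.07, adjusted p = 0.0364, limma), to 85.9% of the 5NC mean. For both genes the libraries of the groups did not overlap, as in 36.7% of tested genes. In this comparison 22.0% of tested genes passed, 8.07% as higher and 13.9% as lower. Both calls were close to the threshold. Quantile normalization gave a log2 fold change of -0.25 for Purg (adjusted p = 0.0826, limma) and -0.14 for Pura (adjusted p = 0.131, limma). Without 5NC replicate 1 or 2, or OV replicate 1 or 2, adjusted p was 0.0521 to 0.0891 for Purg. For Pura it was 0.0504 to 0.130 without any one of the 5NC libraries, OV replicate 1 or 2, or 3NC replicate 2. In a contrast added after the data were seen, the KD effect minus the OV effect passed for Purg (0.71 on the log2 scale, limma adjusted p = 0.000592) and not for Pura (0.16, adjusted p = 0.154), where 51.9% of all tested genes passed.

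Purb itself did not pass in OV compared to 5NC (log2 fold change -0.19, 95% interval -0.39 to 0.02, adjusted p = 0.176, limma), at 88.5% of the 5NC mean. Replicate 3 of OV decided this. Without it the log2 fold change was -0.34 (adjusted p = 0.00111, limma). Transcript length moved with this split. Among 2363 tested genes with an mRNA over 5000 bases, the median log2 difference of OV replicates 1 and 2 from replicate 3 was -0.15, against 0.14 among 2763 genes under 2000 bases and -0.45 for Purb. Between OV and 5NC the median log2 fold change was -0.15 in the long class and 0.06 in the short class. Purb and Pura belong to the long class, and Purg, by its longest annotated mRNA, belongs to the short one. The part of length in these results was not tested.

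**Figure D2:**
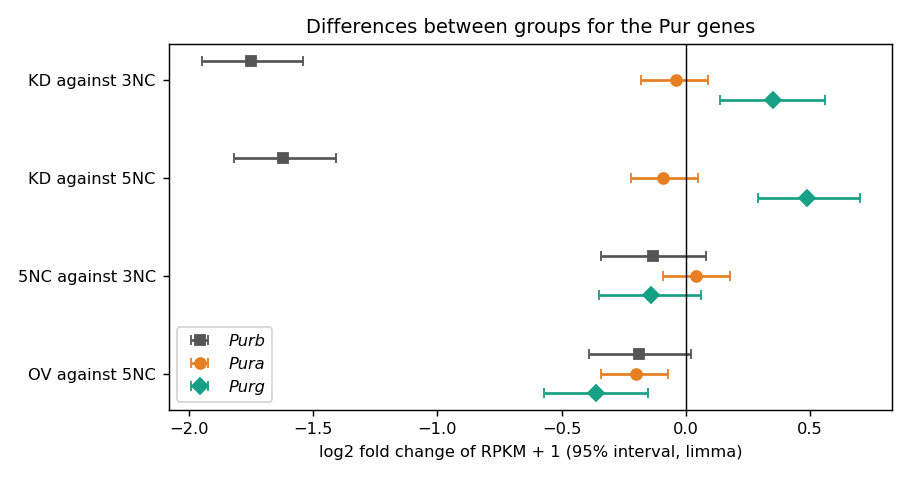
Log2 fold change of RPKM + 1 (x axis) for Purb, Pura and Purg in the 4 comparisons (y axis), with 95% intervals from limma over 12 libraries. The interval of Purg lay above 0 in both knockdown comparisons and below 0 in OV against 5NC, and that of Pura reached 0 in all but the last. The comparisons share libraries, and the Purb values of KD are a description.

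The order of the groups therefore differed by gene. For Purg it was KD, 3NC, 5NC and OV from high to low, where only the step between the control groups did not pass the test. For Pura the order was 5NC, 3NC, KD and OV. Neither 5NC against 3NC nor KD against 3NC passed for Pura, and the libraries of KD and OV overlapped. For Purb it was 3NC, 5NC, OV and KD, where the step from 5NC to OV did not pass and the others are descriptions.

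RPKM is a level per length, so the members can be set side by side, but the gene lengths the authors used are not given, and shares and their order depend on them. Purb made up 67.7%, 67.4% and 68.3% of the summed RPKM of the 3 genes in 3NC and 34.2%, 35.3% and 36.7% in KD. In 5NC its share was 64.9%, 66.6% and 65.8%, and in OV it was 64.4%, 65.4% and 71.1%. The mean share of Pura was 24.2% ± 1.05 in 3NC and 44.3% ± 1.45 in KD, and 26.7% ± 1.16 in 5NC beside 26.8% ± 3.21 in OV. Purg held 7.99% ± 0.868 in 3NC and 20.3% ± 2.39 in KD, and 7.51% ± 1.11 in 5NC beside 6.23% ± 0.542 in OV. Pura was the largest of the 3 in the knockdown cells and Purb in all other groups. Whether reads of lncRNA5251 entered the Purb value is not known here, so the order of Pura and Purb in KD rests on the gene models the authors used. The summed RPKM of the family was 49.6 ± 0.976 in 3NC and 46.6 ± 1.62 in 5NC, against 26.3 ± 1.51 in KD and 40.3 ± 5.58 in OV. The OV libraries were at 37.1, 37.0 and 46.8 RPKM, and replicate 3 lay within the range of 5NC (44.9 to 48.2). The shares of Pura and Purg in KD follow in large part from the low Purb value and were not tested.

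**Figure D3:**
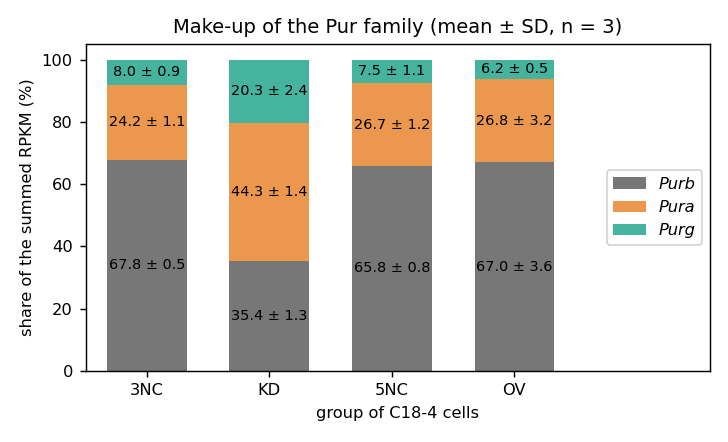
Share of Purb, Pura and Purg in their summed RPKM (y axis, %) in the 4 groups (x axis), as stacked bars with the mean and SD of 3 libraries printed in each. Purb held 67.8% ± 0.462 in 3NC and 35.4% ± 1.27 in KD, where Pura was the largest member.

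The 3 genes differ in structure. On GRCm38, Purb is a minus-strand gene of chromosome 11 between 6467599 and 6475917, with 1 exon and an mRNA of 8319 bases, of which 7313 are 3′ UTR. Pura lies on the plus strand of chromosome 18 from 36281097 to 36292535, with 2 exons, an mRNA of 5957 bases and a 3′ UTR of 4408 bases. Purg lies on the plus strand of chromosome 8 from 33386325 to 33417467 and has 2 annotated coding transcripts, of 1064 and 1795 bases, that end differently and encode 350 and 325 residues. Pura encodes 321 residues and Purb 324. Translated from the annotation, Pur-alpha and Pur-beta were identical at 229 of 287 aligned residues (79.8%). Pur-gamma was identical to Pur-alpha at 157 of 253 (62.1%) and to Pur-beta at 161 of 254 (63.4%).

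This likeness touches the values, since a read that fits more than 1 gene is placed by the mapping. Of the 5923 stretches of 35 bases in the Pura mRNA, 11 also occurred in Purb and 137 did with at most 2 mismatches. Purg shared no stretch with either at that limit. The microRNA gene Gm22123 lies inside the Purb transcript over 53 bases, and the antisense gene Gm11973 overlaps Purb by 493 bases. Neither is listed in the table, and since the counting is not stated to use strand, their reads could not be told apart from those of Purb.

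Genes whose course over the 12 libraries was most like that of each member were found by the root mean square difference of centred log2(RPKM + 1), and likeness here says nothing of shared control. Among the nearest to Purg were Gm15097 (0.06), Eogt (0.07), Cyp39a1 (0.07) and Zcchc24 (0.10). Cyp39a1, an oxysterol hydroxylase, had means of 6.62 RPKM (3NC), 8.98 (KD), 5.97 (5NC) and 4.47 (OV), the order of groups seen for Purg. Eogt, a glycosyltransferase of the endoplasmic reticulum, had means of 11.6, 14.5, 10.4 and 8.12 RPKM in the same order. Few genes came this close to Purg, with 4 of 11435 within 0.1 and 917 within 0.2. Pura followed a common course, with 448 genes within 0.1 and 5303 within 0.2. Its nearest were Zscan26 (0.04), Tax1bp1, Nedd1, Zfp146 and Klhl5 (0.05 each).

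Purb had no gene within 0.1, and its nearest genes were Dpy19l1 (0.20), Hmox1 (0.20), Dkc1 (0.22), Nop2 (0.23) and Oasl1 (0.24). Hmox1 encodes the inducible heme oxygenase, Dkc1 the pseudouridine synthase dyskerin and Nop2 a nucleolar RNA methyltransferase. Mean RPKM in 3NC and KD was 110 and 38.7 for Hmox1, 34.4 and 13.0 for Dkc1, and 62.3 and 22.4 for Nop2. In 5NC and OV it was 96.3 and 99.4 for Hmox1, 28.7 and 29.9 for Dkc1, and 62.9 and 66.9 for Nop2. Since Purb was picked for this pattern, its nearest genes are a description.

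The mRNAs of proteins that travel in RNA granules with Pur-alpha, or are bound by it, were called lower more often than higher in the knockdown cells. Of 24 genes in the list, 23 were tested, and in KD compared to 3NC 4 rose, 11 fell and 8 did not pass the test. The share that passed was 65.2%, against 55.4% of all genes, and the median log2 fold change was -0.12, against 0.04 over all genes. Of all genes 31.9% were called higher and 23.5% lower. Against 5NC the counts were also 4, 11 and 8, with a median of -0.12. There 65.2% of the list passed, beside 65.4% of all genes (34.0% as higher and 31.4% as lower). In OV compared to 5NC 2 rose and 10 fell, with a median of -0.13 against -0.03. That is 52.2% against 22.0% of all genes (8.07% as higher and 13.9% as lower). This OV count rested on few libraries. It was 1 higher and 3 lower without OV replicate 1 or without OV replicate 2, where 8.90% and 8.52% of all genes passed, and 3 higher and 12 lower without OV replicate 3, where 36.6% did. Without 1 of the 5NC libraries it was 1 higher and 3 or 4 lower, and in a fit to the 6 libraries compared 1 higher and 3 lower. With no filter on low values it was 2 higher and 5 lower of 24. The share of all genes without a 5NC library, with the 6 libraries or with no filter is not given here. These counts were an addition made with the data in view. The median of all mRNAs over 5000 bases in OV compared to 5NC was -0.15, and the part of length in the count was not tested. In 5NC compared to 3NC 7 rose and 5 fell, which is 52.2% against 56.5% of all genes, with a median of 0.02. None passed the limits of the study in KD.

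Ddx3x, an RNA helicase, fell from 119 ± 4.65 RPKM in 3NC to 75.7 ± 5.91 in KD (log2 fold change -0.64, adjusted p = 3.81e-05, limma). Syncrip, an hnRNP protein, fell by 0.56 (adjusted p = 5.18e-05), Alyref, an mRNA export adaptor, by 0.47 (adjusted p = 9.27e-07), and Sfpq, a splicing and paraspeckle factor, by 0.43 (adjusted p = 8.82e-07). All of these also passed as lower against 5NC, by 0.54, 0.54, 0.42 and 0.67. Rtraf, a subunit of the tRNA ligase complex, rose from 102 ± 2.25 to 136 ± 8.65 RPKM (log2 fold change 0.41, adjusted p = 1.68e-05, limma) and by 0.34 against 5NC. The other rises were smaller. They were 0.25 for Stau2 (adjusted p = 0.0106, limma) and 0.17 for Stau1 (adjusted p = 0.00857), which encode Staufen proteins that carry mRNA, and 0.12 for the helicase gene Ddx1 (adjusted p = 0.0286). Of these, only Ddx1 passed against 5NC (0.17). In KD against 3NC, leaving out KD replicate 3 ended the calls of Stau2 and Ddx1, 3NC replicate 1 or 3 that of Ddx1, and 3NC replicate 2 that of Stau1, at adjusted p from 0.0510 to 0.0932. Fmr1, the fragile X gene, had a log2 fold change of -0.12 (adjusted p = 0.253, limma) against 3NC and fell by 0.24 (adjusted p = 0.0201, limma) against 5NC, a call lost without KD replicate 2 (adjusted p = 0.0938, limma) or 5NC replicate 2 (adjusted p = 0.0522, limma).

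Genes for factors that meet Pur proteins at promoters or bind them were called in both directions, at a share near that of all genes in KD compared to 3NC. Of 13 listed genes 12 were tested, and in KD compared to 3NC 4 rose, 3 fell and 5 did not pass, with a share past the test of 58.3% against 55.4% of all genes and a median of 0.07 against 0.04. Against 5NC 3 rose and 3 fell (6 of 12, against 65.4% of all genes), in OV compared to 5NC 2 rose and 2 fell (33.3% against 22.0%), and in 5NC compared to 3NC 3 rose and 1 fell (33.3% against 56.5%). The alternatives for the OV count were chosen after seeing the data. Without OV replicate 1 or 2 it was 0 higher and 1 lower, where 8.90% and 8.52% of all genes passed. Without OV replicate 3 it was 2 higher and 5 lower, where 36.6% of all genes passed. Without 5NC replicate 2 or 3 it was 0 higher and 1 lower, and in a fit to the 6 libraries compared 0 higher and 2 lower. The share of all genes in these last settings is not given here. Ybx1 and Ybx3 encode Y-box proteins that act with Pur proteins on the smooth muscle actin promoter. Ybx1 stood at 468 ± 11.3 RPKM in 3NC and 498 ± 8.85 in KD (log2 fold change 0.09, adjusted p = 0.0949, limma). It was higher by 0.15 in KD compared to 5NC (adjusted p = 0.00805, limma), and neither that call nor one in OV compared to 5NC (0.13, adjusted p = 0.0440, limma) held after quantile normalization (0.01 and 0.00). The OV call of Ybx1 was also lost with no filter, with a replicate block, with the 6 libraries compared and without most single libraries, at adjusted p from 0.0503 to 0.161. Ybx3 fell from 176 ± 4.65 to 159 ± 4.16 RPKM (log2 fold change -0.15, adjusted p = 0.0155, limma), a call lost without 3NC replicate 1 (adjusted p = 0.0715, limma).

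Rb1, the retinoblastoma gene, whose protein binds Pur-alpha, rose from 5.47 to 8.43 RPKM (log2 fold change 0.54, adjusted p = 0.000246, limma). Its mean in 5NC was 7.47 RPKM, and the log2 fold change against 5NC was 0.15 (adjusted p = 0.198, limma). E2f1, a cell cycle factor, rose by 0.35 against 3NC (adjusted p = 0.000115, limma) and by 0.29 against 5NC. Sp1, a general activator, rose by 0.25 (adjusted p = 0.00608, limma) and by 0.35 against 5NC. Tead1 rose by 0.34 against 3NC (adjusted p = 0.00827, limma) but was at -0.07 against 5NC (adjusted p = 0.573, limma). Srf, the serum response factor, fell by 0.37 (adjusted p = 0.000186, limma) and by 0.27 against 5NC, and Smad3 fell by 0.25 (adjusted p = 0.00158, limma) and was at 0.03 against 5NC.

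Muscle and collagen genes, the best known promoters of the Pur proteins, were counted against each control in turn. Of 17 listed, 9 were tested and 8 were too low, among them the cardiac myosin genes Myh6, listed at 0 in every library, and Myh7, at no more than 0.01 RPKM. In KD compared to 3NC 6 rose, 1 fell and 2 did not pass, a share of 77.8% against 55.4% of all genes, with a median of 0.26 against 0.04. Acta2, the smooth muscle actin gene, rose from 8.52 ± 0.509 to 18.6 ± 1.45 RPKM (log2 fold change 1.04, adjusted p = 3.27e-08, limma) and was the 1 gene of the list past the limits of the study. Col1a1, a collagen gene, rose by 0.51 (adjusted p = 1.59e-05, limma), Cnn1, which encodes a calponin, by 0.45 (adjusted p = 0.000304), and Tpm1, which encodes a tropomyosin, by 0.31 (adjusted p = 1.35e-05). Smtn, which encodes smoothelin, fell by 0.40 (adjusted p = 0.000292, limma).

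Acta2 stood at 21.2 ± 1.80 RPKM in 5NC, above the knockdown cells, and was at -0.18 in KD against 5NC (adjusted p = 0.0497, limma), a difference with overlapping libraries that did not pass after quantile normalization (adjusted p = 0.111, limma) or in most other settings. Between the control groups it was higher by 1.22 in 5NC (adjusted p = 3.76e-09, limma), and in OV it fell by 0.60 compared to 5NC (adjusted p = 0.000244, limma), to 13.6 ± 1.02 RPKM. Col1a1 was at -0.06 (adjusted p = 0.433, limma) and Tpm1 at -0.02 (adjusted p = 0.703, limma) against 5NC. Cnn1, by contrast, rose by 1.09 against 5NC (adjusted p = 2.94e-08, limma). Over the list, 4 genes rose and 2 fell against 5NC (66.7% against 65.4% of all genes), with a median of 0.11. In 5NC compared to 3NC 3 rose and 3 fell (66.7% against 56.5%), with a median of 0.02, and in OV compared to 5NC 0 rose and 2 fell (22.2% against 22.0%), with a median of 0.01. That OV count was 0 higher and 1 lower without OV replicate 2, where 8.52% of all genes passed. It was 1 higher and 4 lower after quantile normalization, and 0 higher and 1 lower without 5NC replicate 1. The share of all genes in these last settings is not given here, so those counts cannot be set against it.

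Peritubular and mesenchymal markers moved beside this list, which shares Acta2, Cnn1, Col1a1, Myh11 and Col1a2 with them. Of 10 such listed markers, 8 were tested, and 6 rose and 0 fell in KD compared to 3NC (75.0% against 55.4% of all genes), with a median of 0.48. Against 5NC 1 rose and 3 fell (4 of 8, against 65.4%), with a median of -0.03, and in 5NC compared to 3NC 5 rose and 2 fell (87.5% against 56.5%), with a median of 0.43. Their summed RPKM was 843 to 886 in 3NC and 1160 to 1201 in 5NC, with KD at 965 to 1065 and OV at 1220 to 1303. Myh11 and Col1a2 were below 1 RPKM in all libraries. Of 7 listed Sertoli markers, 4 were below 1 RPKM throughout, and their summed RPKM was 57.4 to 59.9 in 3NC and 57.4 to 58.2 in KD, most of it from Wt1. The 4 Leydig markers summed to 0.85 to 1.38 RPKM in 3NC and 1.10 to 2.39 in KD. The part of other cell types in the results was not tested.

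**Figure D4:**
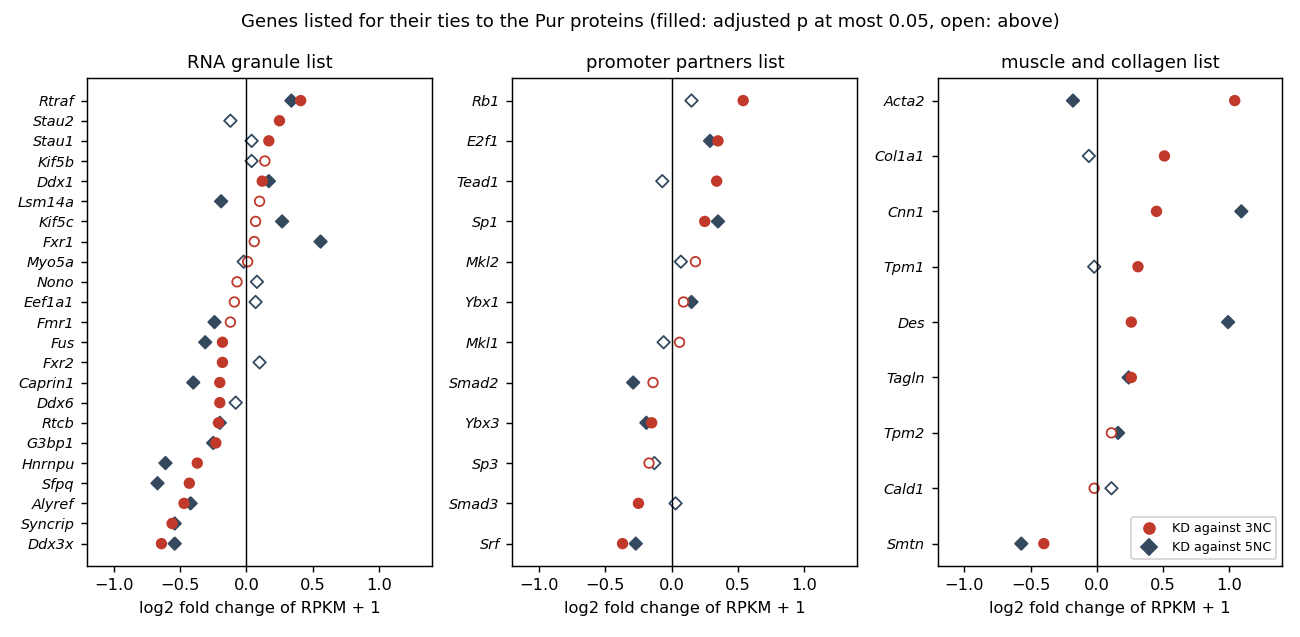
Log2 fold change of RPKM + 1 in KD (x axis) for the tested genes (y axis) of the RNA granule, promoter partner and muscle and collagen lists, against 3NC (circles) and 5NC (diamonds), filled where the adjusted p from limma was at most 0.05. Mkl1 and Mkl2 are older names of the SRF coactivator genes Mrtfa and Mrtfb. Acta2 was at 1.04 against 3NC and at -0.18 against 5NC.

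No tested gene around the 3 loci was as low against 3NC as Purb. Since Purb was chosen for its fall in KD, this contrast is a description with no test. Of 23 annotated genes that start within 200 kb of the Purb start, 9 were listed and 7 tested, and in KD compared to 3NC 2 rose, 1 fell and 4 did not pass, where 31.9% of all tested genes were called higher and 23.5% lower. H2afv, which encodes a variant of histone H2A and starts 31.5 kb downstream of the Purb start on the same strand, rose from 47.2 ± 2.77 to 86.5 ± 2.02 RPKM (log2 fold change 0.86, adjusted p = 6.32e-09, limma). It was at 72.7 ± 3.65 RPKM in 5NC, so that the rise against 5NC was 0.25 (adjusted p = 0.000873, limma). Ramp3, a receptor chaperone gene 183 kb upstream, rose from 3.60 to 6.46 RPKM (log2 fold change 0.69, adjusted p = 5.86e-05, limma) and by 1.77 against 5NC. Tbrg4, a gene for a mitochondrial RNA-binding protein 150 kb upstream, fell from 27.9 to 19.9 RPKM (log2 fold change -0.47, adjusted p = 4.13e-05, limma) and by 0.73 against 5NC. The other log2 fold changes against 3NC were 0.09 for Ogdh (adjusted p = 0.105, limma), 0.03 for Zmiz2 (adjusted p = 0.770), 0.06 for Ppia (adjusted p = 0.378) and 0.07 for Ccm2 (adjusted p = 0.329).

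Near Purg 2 genes were tested and both rose, and near Pura 1 of 3 rose and the other 2 did not pass, beside 31.9% called higher among all tested genes. Wrn, the Werner helicase gene, was named after its values were seen, because it starts 0.798 kb from the Purg start on the opposite strand. Its means were 6.40 ± 0.202 RPKM (3NC), 8.08 ± 0.625 (KD), 6.22 ± 0.125 (5NC) and 4.45 ± 1.08 (OV), the same order of groups as for Purg. It rose in KD compared to 3NC, by 0.29 on the log2 scale (standard error 0.10, limma adjusted p = 0.0264). Its libraries did not overlap, as in 62.8% of tested genes. The other gene, Tex15, also named after its values were seen, starts 130 kb away and had means of 1.72 ± 0.110 RPKM (3NC), 3.84 ± 0.178 (KD), 2.30 ± 0.221 (5NC) and 2.16 ± 0.207 (OV), with its lowest level in 3NC. Its log2 fold change in KD compared to 3NC was 0.83 (limma adjusted p = 4.80e-07).

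**Figure D5:**
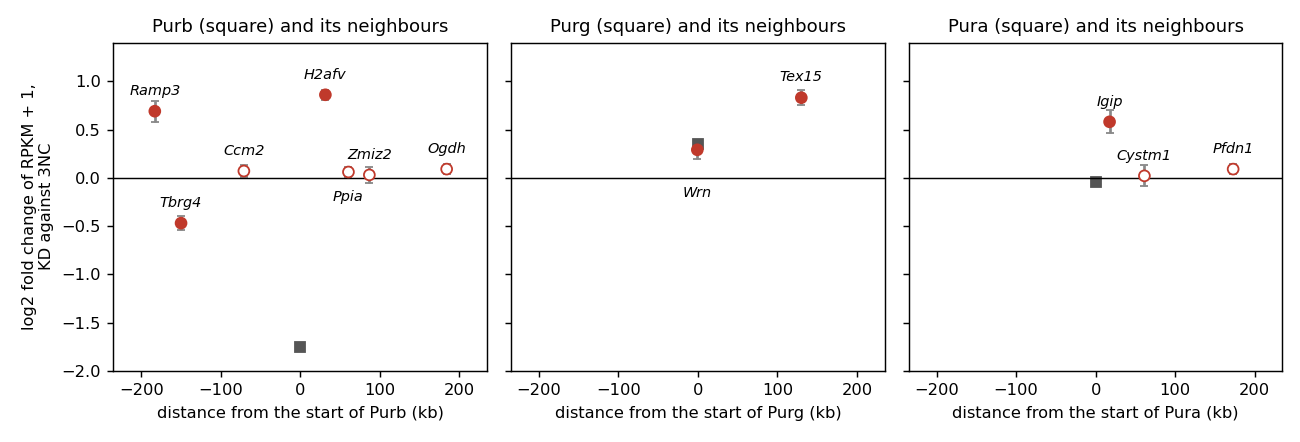
Log2 fold change of RPKM + 1 in KD against 3NC (y axis, error bars: standard error) for the tested genes that start within 200 kb of each Pur gene, by the distance from its start in the direction of its transcription (x axis, kb). Filled circles passed at adjusted p = 0.05 (limma), and squares are the Pur genes. Purb, which was chosen for its fall, was at -1.75, and its neighbours were between -0.47 and 0.86.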

How the data were processed

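Total RNA per the labels, with mRNA enriched by oligo(dT) beads per the methods, was sequenced, and the authors mapped reads to reference genes with SOAPaligner and deposited RPKM in 1 table. The build and gene set are not given in the sources used here. RPKM removes read numbers, so DEGseq, the test of the study, was not run. Bias by length or mapping stays in the values. The heading of the cell culture part of the supplementary methods names lncRNA8276, and the labels, which name lncRNA5251, were followed.

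Genes that reached 1 RPKM in 3 or more libraries were fitted across all genes as log2(RPKM + 1) with limma 3.58.1 (R 4.3.3; eBayes with trend, 1 model of 12 libraries, no replicate block). The fit was tested on simulated data. SciPy 1.17.1 gave the exact tests. Genes named are the Pur genes, Ybx1, Ybx3, Fmr1, Acta2, Myh6 and Myh7, up to 4 rises and 4 falls per list, the 5 genes most like each member and the neighbours of Purb. Not every gene so chosen is not reported here. Members and lists were chosen with earlier results of these data known. Of 89 list symbols 85 were matched. Loci, transcripts and protein comparisons are from GENCODE on GRCm38, and 98% of tested genes had a length. Alternatives were another pseudocount (0.1), no filter, quantile normalization, a replicate block, the 6 libraries compared, the limits of the study, and each library left out. The contrast of both effects and the length classes were added after the data were seen.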

Additional observations from a re-analysis of the deposited data

Results flagged for a closer look

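Purg moved in opposite directions in the knockdown and the overexpression libraries. The difference between both effects, KD against 3NC minus OV against 5NC, was 0.71 (log2) with a standard error of 0.14 and a Benjamini-Hochberg adjusted p of 0.000592 from limma. The contrast was added after the data were seen, and 51.9% of tested genes passed it. Every library of KD was above those of 3NC and every library of OV below those of 5NC. Libraries did not overlap in 62.8% of all tested genes for KD against 3NC and in 36.7% for OV against 5NC. The fall in OV alone did not pass after quantile normalization (adjusted p = 0.0826, limma), or without 5NC replicate 1 or 2 or OV replicate 1 or 2. Over the alternatives the difference was between 0.54 and 0.88, with adjusted p from 0.000243 to 0.00395. For Pura the same difference was 0.16 (95% interval -0.03 to 0.35, adjusted p = 0.154, limma).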

How the results depend on the processing

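The rise of Purg in KD, which did not reach the limits of the study, held in the alternatives of pseudocount, scaling, filter, samples and block, at 0.26 to 0.42 against 3NC (adjusted p 0.00395 to 0.0431, limma) and 0.40 to 0.60 against 5NC. The calls in OV against 5NC held less well. For Pura they were lost with no filter (-0.20, adjusted p = 0.0561), after quantile normalization (-0.14) and with the 6 libraries compared (-0.20, adjusted p = 0.0504). For Purg the call was lost after quantile normalization (-0.25). With each library left out in turn, the log2 fold change in OV against 5NC was -0.23 to -0.17 for Pura, -0.34 to -0.11 for Purb and -0.45 to -0.31 for Purg, and that of Pura in KD against 5NC was -0.15 to -0.03. Purb in KD against 3NC was at -1.84 with a pseudocount of 0.1. Purb in 5NC against 3NC, whose 3NC values took part in its choice, was at -0.13 with the 6 libraries compared. At the limits of the study 0 RNA granule, 0 promoter partner and 1 muscle and collagen gene were called, where the fold limit by construction removes small changes. Tpm1 in OV against 5NC turned from 0.02 (adjusted p = 0.772, limma) to -0.10 (adjusted p = 0.0450) after quantile normalization. Beside the fold limit, the causes were not tested. Of 2251 values under alternatives 102 lost their call and 23 gained one, and 2102 had the same call as before or, where there was no call, moved little. Values not past the threshold could change sign, as Pura in KD against 3NC did (-0.10 to 0.02).

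Deviations of libraries with the same replicate number correlated between -0.178 and 0.354, and 6 of 12 were closest to their own number. With 3 libraries per group, this cannot decide whether replicate numbers pair the libraries. With a replicate block Purg was at 0.35 in KD against 3NC (adjusted p = 0.00959, limma) and at -0.36 in OV against 5NC (adjusted p = 0.0241), and no call of Pura, Purb or Purg changed. It ended the calls of Ybx1 in OV against 5NC (adjusted p = 0.0658, limma) and of Acta2 in KD against 5NC (adjusted p = 0.0633), gave calls to Fmr1 in OV against 5NC (-0.21, adjusted p = 0.0495) and Smtn in 5NC against 3NC (0.17, adjusted p = 0.0445), and changed no other call of a named gene. RPKM hold no read numbers, so the counting error of Purg, the lowest member, is unknown.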
